A study of Mus musculus with 6 samples.

Results

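The genes described here were 7 SOX transcription factor genes, Sox3, Sox4, Sox5, Sox6, Sox9, Sox11 and Sox12, of 23284 genes listed for mouse embryonic hearts. They were taken by symbol from a list drawn up after earlier results of these libraries were known. In that list the low level of Sox3 in Tfam KO hearts was set against its relatives, so the levels of the 7 genes in the 2 genotypes chose them. These levels are given as a description. Limma calls among the 7 are counted beside those of all tested genes, and these counts are no independent test. In all, 20 SOX genes were listed, and 17 of them were above 0 in at least 1 library. The endothelial SOX genes Sox7, Sox17 and Sox18 were left out of the 7 by name. Whole hearts were measured, so the libraries themselves do not assign any of the 7 genes to a cell type.

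Poly(A) RNA of whole hearts of C57BL/6 embryos at stage E13.5 was sequenced in 6 libraries, 3 for each genotype, each from 5 pooled hearts. In Tfam KO hearts both copies of Tfam were floxed and 1 Nkx2.5 allele carried Cre (Tfamfl/fl; Nkx2.5IRES-Cre/+). In the Control group 1 Tfam allele was floxed and the same Cre allele was present (Tfamfl/+; Nkx2.5IRES-Cre/+), so that both groups carried Cre and no Cre-free heart was measured. Tfam encodes a protein that packages mitochondrial DNA and drives its transcription and replication, and Cre from the Nkx2.5 locus acts in the cardiac lineage, which leaves cells of other origin in the heart with intact alleles. The comparison addresses how hearts differ when that lineage has lost Tfam.

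SOX proteins share a DNA-binding domain, the HMG box, which sits in the minor groove and bends the DNA, and most act on a target gene together with a partner protein. The family is divided into groups by the likeness of the box. Sox3 belongs to the SoxB1 group with Sox1 and Sox2, known for keeping neural progenitors undifferentiated. Sox4, Sox11 and Sox12 form the SoxC group, of which Sox4 and Sox11 are needed in the mouse for the outflow tract to form. Sox5 and Sox6 belong with Sox13 to the SoxD group, which has no activation domain of its own. Sox5 and Sox6 assist Sox9 in cartilage, while Sox6 also holds down slow-fibre genes in muscle and embryonic globin genes in red blood cells. Sox9, of the SoxE group, is the main activator of cartilage genes and is needed for the mesenchyme of the heart valves.

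The start of the HMG box shows how near the 7 genes are to each other, which matters for telling their reads apart. The 60 coding bases below begin at coding base 427 of Sox3 and at the matching codon of each relative, in the GENCODE M21 transcripts on GRCm38. Capitals mark the bases that are unlike Sox3.
Sox3: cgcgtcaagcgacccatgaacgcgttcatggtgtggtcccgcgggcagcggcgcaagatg
Sox4: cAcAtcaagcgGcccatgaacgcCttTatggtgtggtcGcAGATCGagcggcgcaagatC
Sox11: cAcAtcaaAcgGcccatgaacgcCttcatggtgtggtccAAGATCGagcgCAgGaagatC
Sox12: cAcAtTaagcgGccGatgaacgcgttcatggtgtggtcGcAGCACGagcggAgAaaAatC
Sox5: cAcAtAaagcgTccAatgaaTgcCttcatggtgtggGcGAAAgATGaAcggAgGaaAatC
Sox6: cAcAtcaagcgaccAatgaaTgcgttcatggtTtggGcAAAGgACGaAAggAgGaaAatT
Sox9: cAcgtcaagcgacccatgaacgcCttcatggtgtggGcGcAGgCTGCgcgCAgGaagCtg

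Of the 60 bases, 13 were unlike Sox3 in Sox4, 14 in Sox9, 16 in Sox11, 16 in Sox12, 19 in Sox6 and 20 in Sox5. Over a window of 240 coding bases that spans the box, identity with Sox3 was 69.6% for Sox4, 69.6% for Sox11, 70.0% for Sox12, 68.8% for Sox9, 60.8% for Sox5 and 59.6% for Sox6. The longest run of bases that any of these 6 transcripts shared exactly with Sox3 was 23 bases, in Sox12. Only 10 of the 2030 stretches of 36 bases in the Sox3 transcript (0.493%) occurred in another gene, all of them in Sox1, which had 0 reads in every library. Sox3 is a gene of 1 exon on chromosome X with no overlapping gene in the annotation. Sox4, on chromosome 13, Sox11, on chromosome 12, and Sox12, on chromosome 2, also have 1 exon, whereas Sox9 on chromosome 11 has 3, Sox5 on chromosome 6 has 15 and Sox6 on chromosome 7 has 16.

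The libraries held between 12370092 and 18078620 reads, and between 15586 and 16063 genes were above 0 in a library. The deposited values were reads scaled by transcript length and library total (FPKM). On the scale of log2(FPKM + 1) the median tested gene was 0.28 higher in Tfam KO hearts. It was 0.00 higher after each library was divided by its size factor, which brings that median near 0 by construction. Whether the shift is one of scale or a broad change of RNA was not tested. Calls are therefore read on both scales, and the words rose and fell are kept for genes past a limma adjusted p of 0.05 on both. Tfam was measured at 3.97, 4.77 and 6.22 FPKM in KO hearts and 4.64, 5.55 and 6.62 FPKM in control hearts, which overlap (log2 fold change -0.15, limma adjusted p = 0.651). With size factors all KO libraries lay below all controls, at 3.39, 5.15 and 4.67 against 5.69, 6.40 and 6.58 (log2 fold change -0.43, limma adjusted p = 0.14). The labels are weakly tested by this value, because controls keep 1 intact allele and reads of exons that are not floxed are counted too. Defining markers of heart muscle were abundant in every library, with Tnnt2 at 2421 ± 569 FPKM in KO hearts and 2571 ± 208 FPKM in controls (SD, n = 3 each).

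Sox3 was the 1 gene of the 7 whose groups stood apart on both scales. Its level was 0.347, 0.386 and 0.725 FPKM in Tfam KO replicates 1, 2 and 3, and 2.64, 2.23 and 3.91 FPKM in Control replicates 1, 2 and 3. Every KO library lay below every control, and the highest KO value was under the lowest control value by a wide margin. The group means were 0.486 ± 0.208 and 2.93 ± 0.876 FPKM (SD, n = 3 each), 6.03-fold higher in the controls. The difference of log2(FPKM + 1) was -1.39, and -1.57 with size factors, on which scale the means were 0.419 ± 0.124 and 3.23 ± 0.655 and the ratio was 7.71-fold. Whichever library was left out, the deposited difference stayed between -1.52 and -1.22. This scale understates the change of a gene at so low a level: with a pseudocount of 0.1 in place of 1 the difference was -2.39, and limma-voom on the recovered reads gave -2.91.

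Few reads lay behind these levels. The FPKM steps gave a Sox3 length of 2065 bases, which is the length of its reference transcript, and with it 9, 11 and 25 reads in KO hearts and 76, 57 and 146 reads in the controls. The exact 95% Poisson intervals, which cover counting error only, ran from 4.12 to 17.1, from 5.49 to 19.7 and from 16.2 to 36.9 reads in the KO libraries. In the controls they ran from 59.9 to 95.1, from 43.2 to 73.9 and from 123 to 172 reads. In FPKM, the highest upper bound of a KO library was 1.07 and the lowest lower bound of a control was 1.69, so the groups stayed apart when counting error was added. Its closest relatives of the SoxB1 group were nearly silent in both genotypes. Sox2, a factor of stem cells and neural progenitors, had 3, 3 and 1 reads in KO hearts and 4, 0 and 7 in the controls, and Sox1 had 0 in all 6. Sox3 was therefore the only gene of its group with more than 7 reads in any library.

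**Figure D1:**
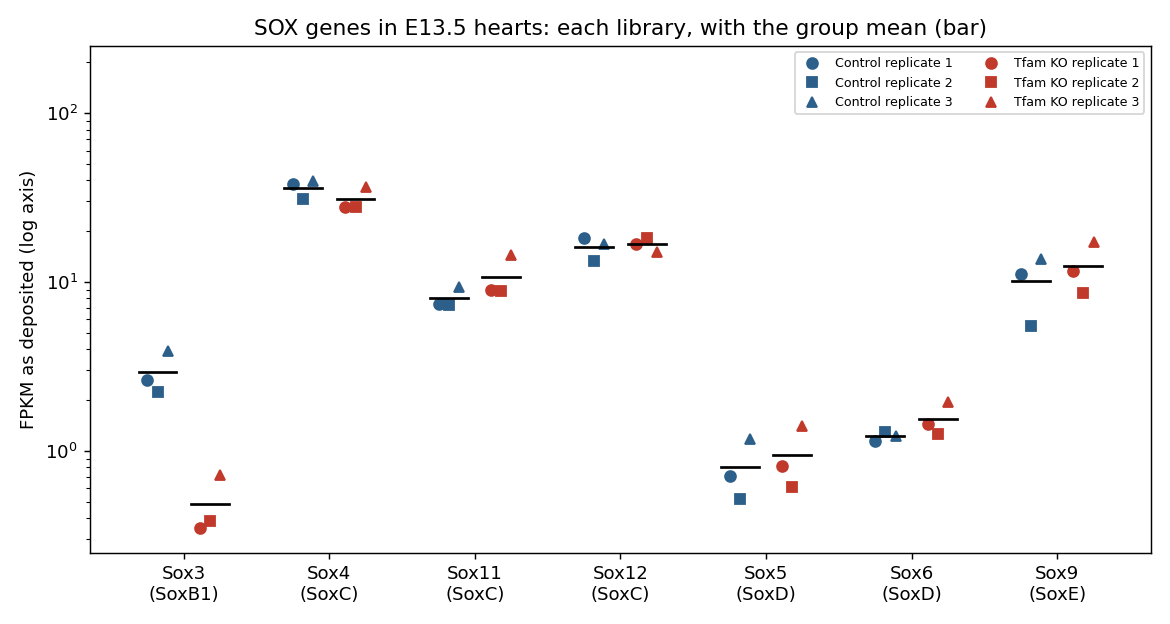
FPKM of the 7 SOX genes on a log axis, grouped by SOX group, with 1 point per library (circle, square and triangle for replicates 1, 2 and 3), control libraries in blue, Tfam KO libraries in red and a bar at each group mean. The Sox3 points of the KO libraries, 0.347 to 0.725 FPKM, lie below all its control points, while the groups of each of the other 6 genes overlap.

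**Figure D2:**
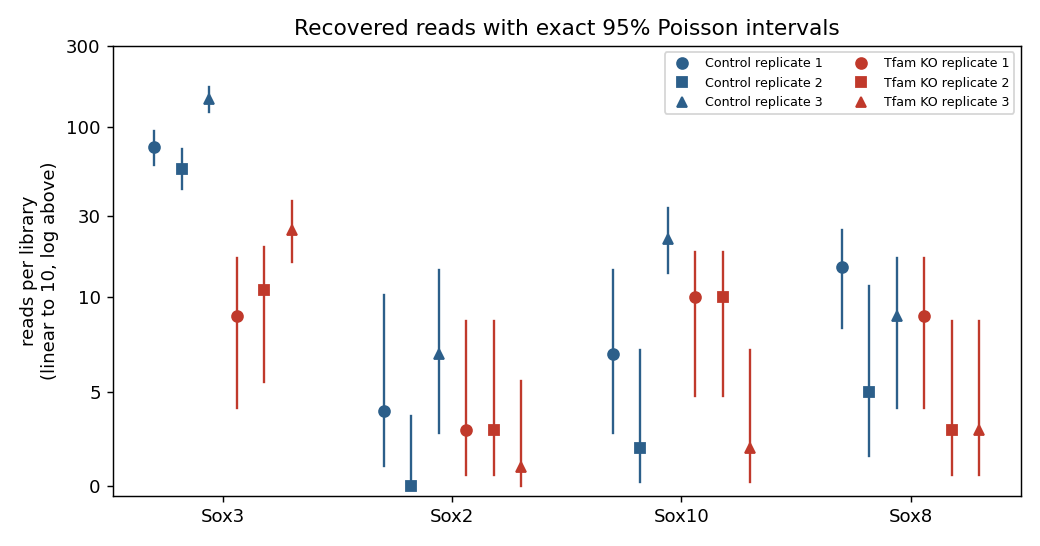
Recovered reads per library for Sox3, Sox2, Sox10 and Sox8, with exact 95% Poisson intervals as bars, on an axis that is linear to 10 reads and logarithmic above. Sox3 had 57 to 146 reads in the controls and 9 to 25 in the KO libraries, and the other genes had at most 22 reads in any library.

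Ratios to a relative within the same library do not depend on the scale of the library. In the controls Sox3 was the fifth of the 7 genes by level in each of the 3 libraries, above Sox6 and Sox5, and in the KO hearts it was the lowest in each of the 3. The level of Sox3 was 3.70, 4.31 and 3.34 times that of Sox5 in Control replicates 1, 2 and 3, and 0.426, 0.630 and 0.513 times in Tfam KO replicates 1, 2 and 3. Against Sox6 it was 2.29, 1.73 and 3.20 times in the controls and 0.241, 0.304 and 0.372 times in the KO hearts. Thus the measured order of Sox3 and its 2 low neighbours turned over in every KO library. The exact Poisson intervals of Sox3 and Sox5 overlapped in Tfam KO replicates 1 and 2, so counting error left their order open there. In replicate 1 they ran up to 0.660 FPKM for Sox3 and down to 0.641 FPKM for Sox5. In replicate 2 these bounds were 0.690 and 0.470 FPKM. The intervals of Sox3 lay below those of Sox5 in Tfam KO replicate 3 and below those of Sox6 in every KO library. Against the abundant Sox4 the level of Sox3 was 0.0695 to 0.0991 times in the controls and 0.0124 to 0.0197 times in the KO hearts.

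The ratio of Sox3 to each of the other 6 genes had no overlap between the genotypes. Its geometric mean was 5.28-fold higher in the controls against Sox4, 6.49-fold against Sox12, 7.28-fold against Sox5, 7.76-fold against Sox6, 7.89-fold against Sox9 and 8.16-fold against Sox11. Among the 15 ratios that leave out Sox3, 2 had no overlap, both with Sox4 in them. The ratio of Sox4 to Sox6 differed by -0.56 and that of Sox4 to Sox11 by -0.63 on the log2 scale, KO minus Control. The contrast that chose the genes is the same, and the ratios with Sox3 all share its values, so these counts are a description. The share without overlap among pairs of all genes was not computed. Sox3 made up 0.511%, 0.585% and 0.826% of the summed FPKM of the 7 genes in KO hearts and 3.33%, 3.66% and 4.57% in the controls.

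**Figure D3:**
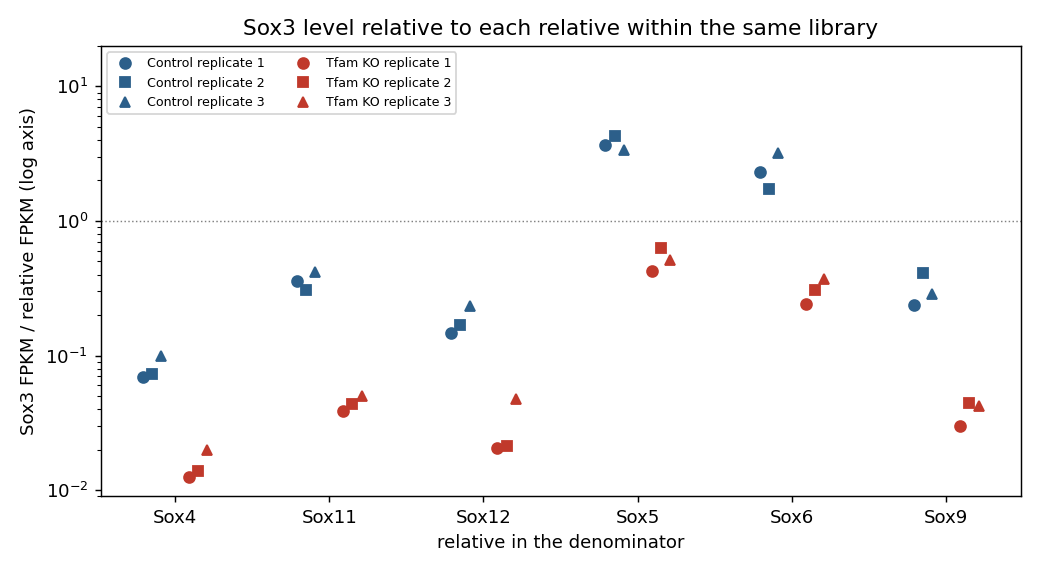
Sox3 FPKM divided by the FPKM of each of the other 6 genes within a library, on a log axis, with control libraries in blue and Tfam KO libraries in red and a dotted line where both genes are at the same level. In each column all red points lie below all blue points, and against Sox5 and Sox6 the controls lie above the line and the KO libraries below it.

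The SoxC genes were the most abundant of the 7. Sox4 led in all 6 libraries, at 28.0, 27.9 and 36.7 FPKM in the KO hearts and 38.0, 30.9 and 39.4 FPKM in control hearts (30.9 ± 5.09 against 36.1 ± 4.61, SD, n = 3 each). The groups overlapped as deposited, because KO replicate 3 lay among the controls, and the log2 difference was -0.22. With size factors all KO libraries lay below all controls (27.2 ± 3.10 against 40.5 ± 5.64, 1.49-fold higher in the controls, log2 difference -0.55). The value of Sox4 is uncertain for another reason. The annotated antisense gene Gm26735 overlaps it, 54.5% of its stretches of 36 bases occur in another gene, and whether reads were counted by strand was not given in the sources used here. The introns and exons of Sox5 also overlap 7 annotated genes and those of Sox6 overlap 2, whose reads could enter the values in the same way.

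Sox11 was measured at 8.91, 8.88 and 14.5 FPKM in KO hearts and 7.40, 7.29 and 9.33 FPKM in control hearts, with KO replicate 3 the only library above 10. Its log2 difference was 0.36 as deposited and 0.05 with size factors, close to the shift of the median gene on each scale. Sox12, the third of the group, was at 16.9, 18.2 and 15.1 FPKM against 18.1, 13.3 and 16.8 FPKM, and the groups overlapped on both scales (log2 difference 0.06 as deposited and -0.26 with size factors). Summed over the 3 genes, the SoxC level was 58.4 ± 6.97 FPKM in the KO hearts and 60.2 ± 7.65 FPKM in control hearts, and 51.8 ± 6.89 against 67.5 ± 9.51 with size factors (SD, n = 3 each).

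Sox9 was at 11.6, 8.66 and 17.2 FPKM in the KO hearts and 11.2, 5.46 and 13.7 FPKM in control hearts (12.5 ± 4.34 against 10.1 ± 4.22, SD, n = 3 each). The spread within each group was wider than the gap between them, and replicate 2 was the lowest library of both. The log2 difference was 0.31 as deposited, 0.00 with size factors and -0.04 as deposited without Control replicate 2. The SoxD genes among the 7 were low throughout. Sox6 was at 1.44, 1.27 and 1.95 FPKM against 1.15, 1.29 and 1.22 FPKM in control hearts, where the lowest KO value fell inside the controls (log2 difference 0.19 as deposited, -0.01 with size factors). Sox5 was at 0.816, 0.612 and 1.41 FPKM against 0.715, 0.518 and 1.17 FPKM, with log2 differences of 0.11 and -0.05. The order of the 7 by control mean was thus Sox4, Sox12, Sox9, Sox11, Sox3, Sox6 and Sox5. Sox9 and Sox11 changed places between libraries, whereas Sox4 and Sox12 held the first and second places in 5 of the 6 libraries, Sox9 being second in KO replicate 3.

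Of the 7 genes, 6 passed the filter of a mean level of 1 FPKM or more, and Sox5 did not. Sox3 passed because of its control level. All KO libraries lay below all controls for 1 of the 6 as deposited (Sox3), against 2.34% of the 10807 genes tested, and for 2 of the 6 with size factors (Sox3 and Sox4), against 12.2%. No gene of the 6 had all KO libraries above all controls on either scale, against 25.6% of tested genes as deposited and 11.8% with size factors. Past the limma threshold, 1 of the 6 was lower and 0 higher, where 1.16% of tested genes were lower and 6.21% higher as deposited, 2.6% lower and 1.99% higher with size factors, and 0.953% lower and 1.99% higher on both. Ordered from the most negative difference, Sox3 took place 13 of 10807 as deposited and place 17 with size factors. These counts come from the contrast that chose the genes and support nothing beyond it.

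The 13 SOX genes outside the 7 were tested as part of the fit over all genes. Of these, 4 passed the filter, and 0 passed the limma threshold in either direction on the deposited scale, with size factors or with voom. At an unadjusted p under 0.05, 0 passed as deposited and 1, lower, with size factors and with voom. The endothelial Sox7 was at 10.5, 8.49 and 10.1 FPKM in the KO hearts and 7.60, 8.86 and 8.47 FPKM in control hearts (log2 fold change 0.20, SE 0.23, limma adjusted p = 0.552, and -0.11 with size factors, 0.709). Sox17, which specifies endoderm and arterial endothelium, had a log2 fold change of 0.19 (limma adjusted p = 0.539), and -0.02 with size factors (0.964). Sox18, of blood and lymph vessels, had -0.15 (limma adjusted p = 0.644), and -0.41 with size factors (0.505). The SoxD gene Sox13 had -0.16 (limma adjusted p = 0.599), and -0.39 with size factors (0.247). The summed level of the 3 endothelial genes was 15.4 ± 2.81 FPKM in KO hearts and 14.1 ± 0.859 FPKM in controls (SD, n = 3 each), and the order was the other way with size factors, at 13.7 ± 3.07 against 15.8 ± 1.71. Sox10, of neural crest and glia, had 2 to 10 reads in the KO libraries and 2 to 22 in the controls, and Sox8, the third SoxE gene, had 3 to 9 and 5 to 15. Sox30 had at most 7 reads in a library, Sox15 at most 5 and Sox21 at most 1. Sry, Sox1 and Sox14 were at 0 in all 6 libraries.

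**Figure D4:**
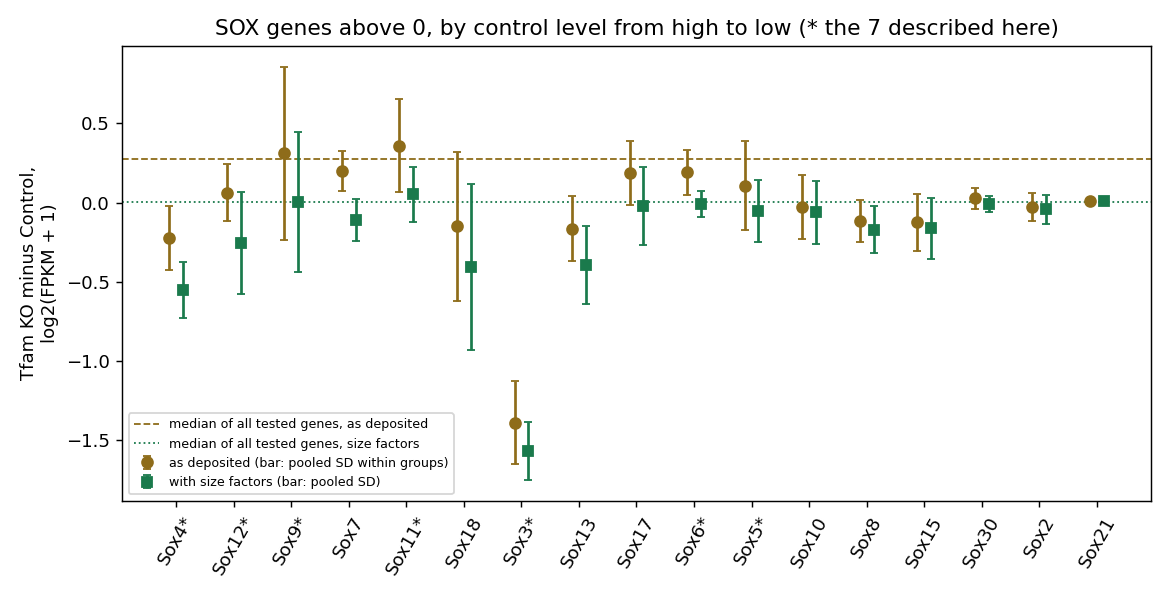
Difference of log2(FPKM + 1), Tfam KO minus Control, for the 17 SOX genes above 0, ordered by control level from high to low, as deposited and with size factors, with bars of 1 pooled SD within groups, and lines at the median of all tested genes on each scale. Asterisks mark the 7 genes described here; Sox3 lies at -1.39 and -1.57, below every other SOX gene.

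The genes around the SOX proteins did not pass on both scales. Of 20 listed partner and cofactor genes, 13 were tested. As deposited 1 was higher and 0 were lower, with size factors and with voom 0 were called, and at an unadjusted p under 0.05 there was 1 higher and 0 lower with either. The median log2 fold change of the 13 was 0.29 as deposited and 0.00 with size factors, beside 0.28 and 0.00 for all tested genes. Beta-catenin (Ctnnb1), which Sox9 is known to oppose, was at 118, 94.6 and 152 FPKM in KO hearts against 83.5, 99.8 and 111 FPKM (log2 fold change 0.29, SE 0.23, limma adjusted p = 0.378, and -0.05 with size factors, 0.87). Kpnb1, an importin that carries SOX proteins into the nucleus, had a log2 fold change of 0.50 (SE 0.23, limma adjusted p = 0.152), and 0.16 with size factors (0.487). The 1 gene called as deposited was Tcf7, a Wnt effector that itself has an HMG box, and it was named after its values were seen. It was at 2.47, 2.21 and 2.34 FPKM against 1.52, 0.727 and 1.19 FPKM (log2 fold change 0.66, limma adjusted p = 0.0331, and 0.201 with size factors). Pou3f2 and Pou3f3, neural partners of SoxB1 proteins, stayed under 0.2 FPKM in every library.

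Among the 25 other HMG-box genes, 23 were tested. As deposited 1 was higher (Tcf7 again) and 0 were lower, with size factors 0 were called in either direction, and voom called 2 lower and 0 higher. With size factors, an unadjusted p under 0.05 gave 1 higher and 5 lower. The median log2 fold change of this list was 0.24 as deposited and -0.07 with size factors. Hmgb1, an abundant chromatin protein, was at 177, 195 and 356 FPKM in the KO hearts and 167, 177 and 232 FPKM in control hearts (log2 fold change 0.28, limma adjusted p = 0.387, and -0.06 with size factors, 0.899). Its relative Hmgb2 had a log2 fold change of 0.04 (limma adjusted p = 0.91). With size factors all KO libraries of Hmgb2 lay below all controls (log2 fold change -0.30, limma adjusted p = 0.236). The 2 genes that voom called were Hmg20b and Cic (voom adjusted p = 0.0309 and 0.0287), named after their values were seen.

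Known targets were read next, from lists that no rule for the 7 genes used but that were chosen with earlier results of these data known. Of 19 listed cartilage genes that Sox5, Sox6 and Sox9 switch on, 17 were found and 8 passed the filter. As deposited 0 were higher and 2 lower, and on both scales 1 was lower, beside 0.953% of all tested genes. At an unadjusted p under 0.05, the deposited scale gave 1 higher and 2 lower, size factors 0 and 2, and voom 0 and 3, while voom called Col2a1 and Col9a2 lower. Col2a1, the main collagen of cartilage, was at 3.70, 1.68 and 3.31 FPKM in KO hearts and 6.25, 3.17 and 7.46 FPKM in controls, with Control replicate 2 inside the KO range. It fell by 0.75 on the log2 scale as deposited (SE 0.22, limma adjusted p = 0.019), and its log2 fold change with size factors was -1.02 (SE 0.24, adjusted p = 0.0397) and the groups did not overlap. This call was lost without Tfam KO replicate 2 (limma adjusted p = 0.132), Control replicate 1 (0.242) or Control replicate 3 (0.191), and without the filter on low values (0.288). Col9a2, a minor cartilage collagen named after its values were seen, was at 2.44, 1.56 and 1.68 FPKM against 4.86, 1.94 and 5.26 FPKM and passed as deposited only (limma adjusted p = 0.0183, and 0.0641 with size factors). The median log2 fold change of the 8 was 0.13 as deposited and -0.08 with size factors, and Acan, the cartilage proteoglycan, was under 0.5 FPKM in every library.

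Of 12 slow-muscle and globin genes that Sox6 is known to hold down, 12 were tested, and 3 fell on both scales and 0 rose, beside 0.953% and 1.99% of all tested genes. Voom called 5 lower (these 3, Myh7 and Casq2) and 0 higher, and at an unadjusted p under 0.05 there were 4 lower as deposited, 6 with size factors and 7 with voom, and 0 higher with each. Tnnt1, slow skeletal troponin T, was at 36.2, 40.8 and 68.9 FPKM in the KO hearts and 135, 149 and 179 FPKM in control hearts (48.6 ± 17.7 against 155 ± 22.5, SD, n = 3 each, log2 fold change -1.70, limma adjusted p = 1.35e-11, and 0.000111 with size factors). Myh7b, a slow myosin heavy chain, was at 8.91, 6.79 and 7.99 FPKM against 14.8, 17.8 and 16.0 FPKM (log2 fold change -0.95, limma adjusted p = 0.00147, and 0.00052 with size factors). Myl3, the ventricular light chain, was at 789, 819 and 771 FPKM against 1504, 1009 and 1629 FPKM (log2 fold change -0.77, limma adjusted p = 0.00585, and 0.0163 with size factors). The groups did not overlap for these 3 genes, though the call of Myl3 was lost as deposited without Control replicate 1 (limma adjusted p = 0.146) or Control replicate 3 (0.133), and without the filter on low values (0.226). Their falls were among those already known from these libraries and are no independent support. The median log2 fold change of the 12 was -0.19 as deposited and -0.52 with size factors, beside 0.28 and 0.00 for all tested genes. For the 10 cardiomyocyte markers read below it was 0.06 as deposited and -0.28 with size factors. The part of the difference of the 12 that is shared with other heart muscle genes was not tested. Hbb-y, the embryonic globin that Sox6 silences in mouse, ran from 2395 to 11313 FPKM in KO hearts and from 4455 to 8645 FPKM in controls, which overlap.

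Reported targets of Sox4 and Sox11 showed no call. Of 8 listed, 7 were found and 4 tested, and 0 passed in either direction on the deposited scale, with size factors or with voom. At an unadjusted p under 0.05 the counts were 0 as deposited and 1 lower with size factors and with voom. Tead2, a Hippo pathway factor, was at 29.3, 19.8 and 24.5 FPKM against 25.3, 18.9 and 24.3 FPKM (log2 fold change 0.09, limma adjusted p = 0.782, and -0.23 with size factors, 0.476). Stmn1, a tubulin-binding protein of dividing and neural cells, had a log2 fold change of 0.01 (limma adjusted p = 0.975), and -0.33 with size factors (0.144), where all KO libraries lay below all controls.

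**Figure D5:**
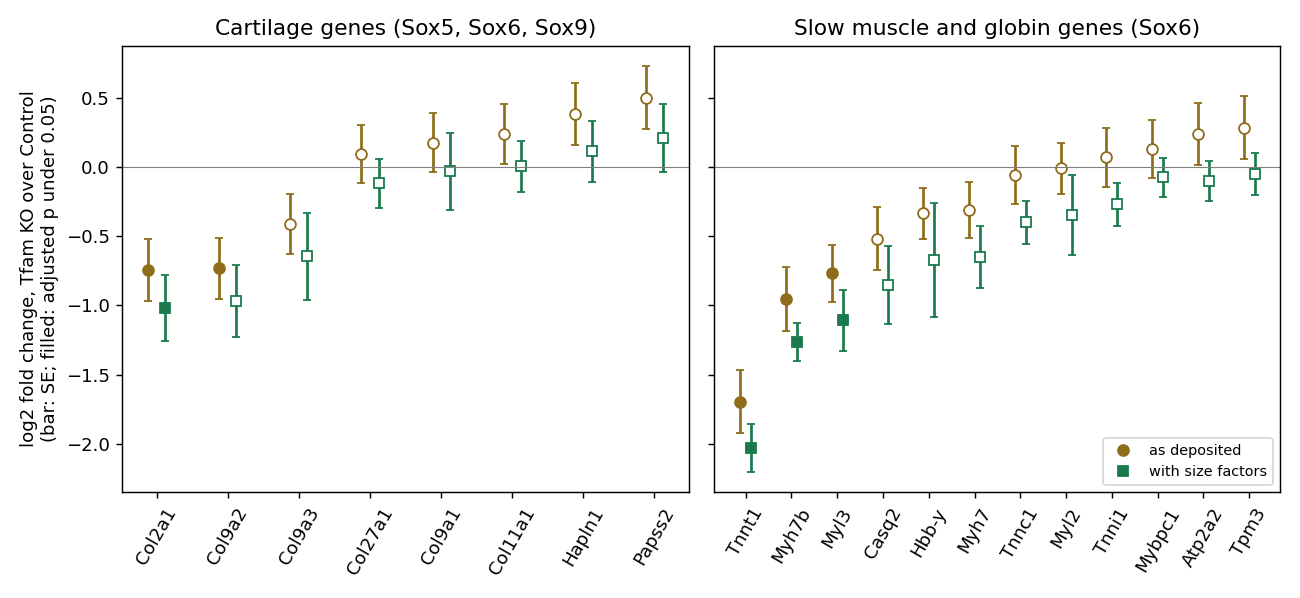
log2 fold change (Tfam KO over Control, with SE) of the tested cartilage genes and of the tested slow-muscle and globin genes, as deposited and with size factors, with filled points for a limma adjusted p under 0.05. Col2a1, and Tnnt1, Myh7b and Myl3, are filled and below 0 on both scales, and Col9a2 on the deposited scale.

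Markers of the cell types that could hold these SOX genes were read in the same libraries. In bulk hearts, fewer cells of a type and less RNA per cell cannot be told apart. Of 20 neural progenitor and neuron markers, where SoxB1 genes are best known, 15 were under 1 FPKM in every library and 2 were tested, with 0 called on any scale. At an unadjusted p under 0.05 the neural counts were 0 as deposited and 1 lower with size factors and with voom. The summed level of the 20 ran from 32.3 to 45.1 FPKM in KO hearts and from 32.8 to 38.7 FPKM in controls, and from 28.8 to 34.9 against 37.9 to 45.4 with size factors. Most of it came from Nes, an intermediate filament of progenitors (20.2 ± 4.49 against 17.2 ± 1.98 FPKM, SD, n = 3 each), and Gap43, of growing axons (13.1 ± 2.15 against 15.2 ± 1.97). Among its defining genes, Sox1 was at 0. Of 12 neural crest and Schwann cell markers, 7 were under 1 FPKM in every library, 2 were tested and 0 were called on the FPKM scales, while voom called 1 lower, Ednrb. Ngfr, the other tested, had a log2 fold change of 0.00 (limma adjusted p = 0.997), and -0.17 with size factors (0.743). The crest sum ran from 20.4 to 35.8 FPKM in KO hearts and from 27.5 to 32.8 FPKM in controls, and from 17.4 to 26.9 against 32.6 to 37.0 with size factors. Ednrb, the endothelin receptor of neural crest, led that list at 15.6, 18.2 and 30.2 FPKM in KO hearts and 22.7, 29.4 and 28.2 FPKM in controls. At an unadjusted p under 0.05 the crest counts were 0 as deposited and 1 lower with size factors. Sox10, of neural crest and glia, was at 0.0441 to 0.294 FPKM in KO hearts and 0.0596 to 0.449 FPKM in controls, and overlapped on both scales. With size factors both sums were lower in all KO libraries than in all controls, as were Sox3 and 12.2% of all tested genes. The part of these sums in the Sox3 difference was not tested.

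Of 15 valve mesenchyme markers, the tissue where Sox9 is best known in the heart, 14 were tested. As deposited 1 was higher and 0 lower, and 8 were higher at an unadjusted p under 0.05. With size factors and with voom 0 were called, and at an unadjusted p under 0.05 there was 1 higher with either, with 2 lower with size factors and 3 lower with voom. Postn, a matrix protein of valve cushions, was at 97.0, 88.0 and 133 FPKM in the KO hearts and 63.9, 54.3 and 75.7 FPKM in controls (log2 fold change 0.69, limma adjusted p = 0.0362, and 0.169 with size factors). Ptn, a secreted growth factor and the next by level among the abundant markers, had a log2 fold change of 0.48 (limma adjusted p = 0.162), and 0.15 with size factors (0.781). The count of 1 higher became 6 without Tfam KO replicate 2. The Postn call was lost without each library in turn except Tfam KO replicate 2 (limma adjusted p 0.068 to 0.276). Of 15 endothelial markers 15 were tested, 1 was higher as deposited, and 0 were called with size factors or voom, where an unadjusted p under 0.05 gave 1 higher and 0 lower. As deposited that gene was Emcn, an endothelial surface sialomucin (log2 fold change 0.68, limma adjusted p = 0.0475, and 0.35 with size factors, 0.137). The most abundant of the list, Cdh5 and Cd34, had log2 fold changes of 0.09 and 0.44 (limma adjusted p = 0.796 and 0.199), and -0.24 and 0.12 with size factors (0.337 and 0.689). Of 10 cardiomyocyte markers, 0 were called as deposited, while an unadjusted p under 0.05 gave 1 higher and 1 lower. At that unadjusted level 4 were lower with size factors and 5 with voom, and 0 were higher with either. Past the adjusted threshold, 2 were lower with size factors and with voom. Those were Ttn, the giant spring protein of the sarcomere (log2 fold change with size factors -0.72, limma adjusted p = 0.0362, and -0.40 as deposited, 0.245), and Nkx2-5, whose locus carries Cre in both groups (-0.93, limma adjusted p = 0.0388, and -0.61 as deposited, 0.0787). Actc1 and Tnnt2, the most abundant, had log2 fold changes of 0.09 and -0.11 (limma adjusted p = 0.75 and 0.694), and -0.25 and -0.45 with size factors (0.597 and 0.4). The sum of these 10 ran from 7245 to 9144 FPKM in KO hearts and from 7427 to 8795 FPKM in controls. Germ cell and testis markers, another place of Sox3 expression, were under 1 FPKM in every library for 6 of 7 genes, and 3 of those were at 0. The seventh was Zbtb16, at 0.281 to 1.67 FPKM.

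Sox3 lies on chromosome X, and the Y-linked genes differed between the groups. Ddx3y, a Y-linked RNA helicase named after its values were seen, was at 4.17, 7.43 and 5.65 FPKM in the KO hearts and 1.95, 1.46 and 2.44 FPKM in control hearts (log2 fold change 1.18, limma adjusted p = 9.49e-06, and 0.0509 with size factors). Uty, Kdm5d and Eif2s3y were likewise higher in all KO libraries than in all controls on both scales. Eif2s3y had a log2 fold change of 1.02 (limma adjusted p = 0.000376, and 0.0545 with size factors). Xist, expressed from the inactive X of females, was at 13.3, 6.38 and 21.2 FPKM against 10.4, 20.8 and 14.3 FPKM, which overlap. Of 5 sex-linked genes 4 were tested, of which 3 were higher as deposited, 3 with voom and 0 with size factors, where 3 were higher at an unadjusted p under 0.05. Over the 346 tested genes of chromosome X the median log2 fold change was 0.27 on the deposited scale and -0.01 with size factors, beside 0.28 and 0.00 for 9498 autosomal genes. On both scales, 2 genes of chromosome X (0.578%) and 88 autosomal genes (0.927%) were lower. The part of the sex-linked difference in the Sox3 values was not tested.

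The protein-coding genes nearest to Sox3 were mostly silent. Of the 5 listed on either side in the GENCODE M21 annotation, 8 were at or under 0.132 FPKM in every library. Fgf13, a modulator of sodium channels, was at 8.06, 8.19 and 9.05 FPKM in KO hearts and 7.40, 9.76 and 11.0 FPKM in controls (log2 fold change -0.13, limma adjusted p = 0.708, and 0.118 with size factors).

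The genes whose pattern over the 6 libraries was most like each SOX gene were found from the root mean square difference of profiles, each centred and divided by its own SD after size factors. With 6 points that share the libraries and the size factors, this is a description of pattern, not of size. Sox3 and Sox4 had all KO libraries below all controls with size factors, and their nearest genes were picked on that scale. Limma calls of the picked genes on that scale follow in part from the choice and are no test. The 5 nearest to Sox3 were Smtnl2 (0.0958), Kalrn (0.106), Cyth1 (0.108), Dut (0.115) and Extl3 (0.130). Their log2 fold changes with size factors ran from -0.65 for Kalrn to -0.32 for Cyth1, against the difference of -1.57 of Sox3. On that scale Kalrn, Dut and Extl3 passed (limma adjusted p = 0.0151, 0.0154 and 0.0282), and Smtnl2 and Cyth1 did not (0.111 and 0.167). As deposited they ran from -0.43 for Kalrn (limma adjusted p = 0.184) to -0.005 for Smtnl2 (0.99). No gene of the 5 passed there, and the groups overlapped for all but Kalrn. Kalrn was at 1.40, 1.21 and 1.74 FPKM in the KO hearts and 2.20, 2.05 and 2.63 FPKM in controls. Nearest to Sox4 was Cited2, a transcription cofactor needed for the heart to form, with a difference of 0.0359. Cited2 was at 8.83, 10.1 and 12.8 FPKM in KO hearts and between 13.1 and 19.1 FPKM in controls, and it passed with size factors only (log2 fold change -0.93, limma adjusted p = 0.0131, and 0.0755 as deposited). The next for Sox4 was 6430527G18Rik (0.0968). For the others the nearest pairs were Efna2 and Sf3a1 for Sox5, Ap4b1 and Ndufa2 for Sox6, Prss35 and Poc1b for Sox9, Cald1 and Nek7 for Sox11, and Rab5c and Mrpl14 for Sox12, at differences of 0.148 to 0.247.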

How the data were processed

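Poly(A) RNA of 6 pools of 5 hearts was measured. Per the submitters' processing notes, mm9, TopHat2 2.0.7, HTSeq 0.5.3 and CASAVA 1.8.2 were used, with no role stated. Not given in the sources used here were the annotation, the strand setting and the FPKM formula. The values deposited by the authors were on a log2 scale, as log2(FPKM + 1), 1 file per library. Values were turned back to FPKM, and library totals were recovered from its steps, with the same total given by 162 genes. All 17876 genes above 0 then gave whole reads (tolerance 1e-06 of a read), known except for a whole factor shared by all libraries unless the length matches the reference. Rn45s, the ribosomal RNA precursor, took 14.95% to 32.5% of each total.

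Differences were fitted with limma 3.58.1 (R 4.3.3) with group as the only term and a mean-variance trend, two-sided, on the 10807 genes whose mean was 1 FPKM or more, with Benjamini-Hochberg adjusted p-values and a threshold of 0.05. The fit was tested on simulated data. As deposited the median SD that the fit used was 0.277 on the log2 scale, each gene taking the SD of the trend (infinite prior degrees of freedom). With size factors (0.815 to 1.33) the median was 0.175. Other settings were median-of-ratios size factors, a pseudocount of 0.1, no filter, a replicate block, limma-voom on recovered reads, and leaving out each library. Apart from the pools, nothing in the labels says that the replicates came from separate litters, so p-values measure the spread between these pools. As deposited that spread is the trend over genes of like level, not each gene's own. The genes and the lists were chosen with earlier results of these data known. Within a list, up to 4 genes past the threshold on both scales were named, or the 2 most abundant where none passed. Sequences came from GENCODE M21 transcripts on GRCm38, a later build than that of the files, and no coordinates are given. One neighbour of Sox3 is not reported here.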

Additional observations from a re-analysis of the deposited data

How the results depend on the processing

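The Sox3 difference of -1.39 kept its sign under every setting run. As the groups do not overlap, leaving out a library, another pseudocount or the block could not have changed that sign. The difference was -1.57 with size factors, -2.39 with a pseudocount of 0.1, -2.91 with limma-voom, and -1.52 to -1.22 when 1 library was left out. Whether replicate numbers pair the libraries was not settled. As deposited, same-numbered deviations from the group mean correlated at 0.365, 0.050 and 0.175, and differently numbered ones at -0.407 to 0.254. A replicate block cannot move a difference in this balanced design, only its error. Over all tested genes, 671 higher and 125 lower as deposited became 215 and 281 with size factors, 145 and 22 without the filter, 2083 and 241 with the replicate block, 278 and 460 with limma-voom, and 234 to 2273 and 52 to 112 with 1 library left out. The highest count, 2273, came without Tfam KO replicate 2. Partner genes, 1 higher, became 0 with size factors, 0 without the filter, 2 with the block, 0 with limma-voom, and 0 to 4 with 1 library left out. Cartilage genes, 2 lower and 0 higher, became 1 lower with size factors, 0 lower without the filter, 1 higher with the block, and 0 to 3 lower and 0 to 1 higher with 1 library left out. The 0 lower came when replicate 1 or 3 of the controls or replicate 2 of Tfam KO was left out, and 1 lower without Tfam KO replicate 3. Slow-muscle genes, 3 lower, became 5 with limma-voom, 2 without the filter, 4 with the block, and 2 to 4 with 1 library left out. Valve markers, 1 higher, became 0 with size factors, 0 without the filter, 7 with the block, 0 with limma-voom, and 0 to 6 with 1 library left out. The cause of these changes was not tested. Sox3 rests on 9 to 146 reads a library, which limits how finely its fold is known.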
